A study of Mus musculus with 9 samples.

Results

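The testis-specific serine kinases and their substrate Tsks were measured as RNA in testes of mice with and without Pfn3, the gene for profilin 3. The group holds 7 genes (Tssk1, Tssk2, Tssk3, Tssk4, Tssk5, Tssk6 and Tsks) of 38674 in the expression table. They were selected by gene symbol. Reads were counted on 6 of the 7 genes, and Tssk5 was at 0 in all samples.

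Testis-specific serine kinases are small serine/threonine kinases that are made almost only in male germ cells, mostly after meiosis, in round and elongating spermatids. They act while the spermatid reshapes its nucleus, builds its flagellum and sheds cytoplasm, and mice that lack Tssk1 together with Tssk2, or Tssk3 or Tssk6 alone, have infertile males. Tsks is a spermatid protein that Tssk1 and Tssk2 bind and phosphorylate.

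The study made Pfn3-deficient C57BL/6 mice by CRISPR/Cas9 editing, as several frameshift deletion lines, and the sources used here do not say which line was sequenced. The animals were sexually mature males, as the methods state for all experiments. Total RNA came from whole testis of male mice without the tunica albuginea, so every germ cell stage and the somatic cells are in each sample. The groups are wild-type Pfn3+/+ (WT), heterozygous Pfn3+/- (Het) and knockout Pfn3-/- (KO), with 3 samples each and no treatment. The labels do not state that the samples of a genotype came from separate mice, so p-values measure the spread between these samples. Each library was a QuantSeq 3′ library, in which a read marks the end of a polyadenylated transcript. A normalized count is the gene count that the authors made from such reads with StringTie, divided by 1 size factor for the sample. Numbers of reads given here are these counts before the division, recovered from the smallest value of each sample. They are not a direct tally of sequenced reads.

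The libraries held 3375546 to 4287335 reads on genes, and 3 reads, taken as the detection limit, corresponded to 2.58 to 3.71 normalized counts. Pfn3 was at 373 to 592 normalized counts in WT, 136 to 339 in Het and 74.7 to 279 in KO. The deletion was made inside the coding exon and the reads come from the 3′ end, so a mutant transcript can still be counted and Pfn3 is no full check of the labels. Markers of the testis were present in every sample, and 5 of 5 epididymis markers were at 0 in all 9.

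Tssk1 and Tssk2 are single-exon neighbours on chromosome 16 of GRCm38, on the plus strand. Tssk1 (ENSMUSG00000041566) runs from 17894223 to 17897922, and Tssk2 (ENSMUSG00000045521) starts 714 bases after its end and runs from 17898637 to 17900024. Their coding sequences, of 1095 and 1074 bases, were identical at 76.3% of aligned columns, whereas all other pairs of kinases in the group were identical at 45.4% to 55.6%. The longest stretch without a mismatch, 113 bases from coding base 371 in both genes, is shown because a 50-base read from it could not be given to either gene.

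Tssk1 and Tssk2, shared coding run: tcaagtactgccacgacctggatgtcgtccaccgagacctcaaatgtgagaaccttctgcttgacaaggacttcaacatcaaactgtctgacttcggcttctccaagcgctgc

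The last base of Tssk1 held by any 50-base stretch shared with another gene lay 699 bases from its 3′ end, and for Tssk2 the distance was 634 bases. The shared sequence is thus away from the ends that QuantSeq reads mark. In the other pairs of kinases, the longest identical run was 9 to 14 bases.

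Tssk3 (ENSMUSG00000000411) lies on chromosome 4 from 129489014 to 129491022 on the minus strand and has 2 exons. Tssk4 (ENSMUSG00000007591) lies on chromosome 14 from 55650184 to 55652539 on the plus strand, with 3 to 4 exons in its 7 transcripts. Tssk5 (ENSMUSG00000060794) lies on chromosome 15 from 76371952 to 76374938 on the minus strand. Tssk6 (ENSMUSG00000047654), a single exon on chromosome 8 from 69902184 to 69903518 on the plus strand, starts inside Ndufa13 and Yjefn3, which run on the opposite strand. Of its 50-base stretches, 25.3% are also found in Ndufa13 transcripts, all in its first 375 bases and 960 bases or more from its 3′ end. Tsks (ENSMUSG00000059891) lies on chromosome 7 from 44943204 to 44958035 on the plus strand, with 4 to 11 exons. Whether the authors counted by strand is not given in the sources used here, so reads of Tssk6 and its opposite partners, or of Tssk1 and Dgcr2, may not have been separated where they overlap. Dgcr2 was at 46.4 to 281 normalized counts, Yjefn3 at 0 to 114 and Ndufa13 at 623 to 1278.

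Promoters from RefSeq (GRCm38.p6) were found for 6 of the 7 genes, spanning 250 bases before to 50 after each start, and the 120 bases before the start are shown for the 3 with a match to a searched motif. The motifs were searched on both strands, with the cAMP response element first, since CREB and CREM bind it in germ cells. Its palindrome TGACGTCA was in 0 of the 6 promoters and in 1.79% of 32851 promoters. Its core TGACG, reverse CGTCA, lies within the palindrome and was in 1 of the 6, that of Tssk6, and in 20.8% of all promoters. The sequence TGACTTCA, reverse TGAAGTCA, was chosen after the promoters were read. It was in 2 of the 6, those of the neighbours Tssk1 and Tssk2, and in 1.52% of all. Because of that choice, the first count cannot be judged against the second. The matches are in capitals.

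Tssk1, chr16:17894083-17894202, plus strand: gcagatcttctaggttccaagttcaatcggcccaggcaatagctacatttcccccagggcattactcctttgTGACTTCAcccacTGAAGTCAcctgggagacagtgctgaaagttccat

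Tssk2, chr16:17898517-17898636, plus strand: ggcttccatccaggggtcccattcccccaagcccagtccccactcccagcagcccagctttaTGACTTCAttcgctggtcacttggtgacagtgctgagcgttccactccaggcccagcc

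Tssk6, chr8:69902064-69902183, plus strand: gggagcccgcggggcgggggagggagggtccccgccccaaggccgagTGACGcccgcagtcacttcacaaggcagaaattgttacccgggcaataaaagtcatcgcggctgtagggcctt

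In Tssk1 the 8 bases occur from -48 to -41 and, reversed, from -35 to -28, and in Tssk2 from -58 to -51. Positions are counted from the RefSeq transcription start, which for Tssk1 lies upstream of the gene start given above. The longest run common to both promoters was gacagtgctga, at -20 to -10 in Tssk1 and -33 to -23 in Tssk2. A match is a description of letters and not a measured binding site.

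The first question was what happened to the kinases and Tsks in testes without Pfn3. All 6 expressed members had a lower mean log2 level in KO than in WT, with a median log2 fold change of -0.86, whereas the median over 14223 genes tested was 0.02 and 48.6% of these genes were lower. None of the 6 passed the call, a limma adjusted p under 0.05 with a log2 fold change over 1.5, which 0.0352% of genes passed. Tssk1, Tssk2, Tssk3 and Tsks had an unadjusted p under 0.05 and KO samples that were all below the WT samples. Over all genes, 5.03% were lower with such a p and 10.5% had all KO samples below all WT samples. The edgeR and DESeq2 tests on the recovered reads also called 0 of the 6, and both gave 4 members an unadjusted p under 0.05. Such a p, in either direction, was seen for 7.66% of all genes with edgeR and 7.30% with DESeq2. These tests called 5 and 100 of the 14223 genes. In whole testis RNA, fewer cells of a type and less RNA per cell cannot be told apart.

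Tssk1 was at 1805, 1607 and 1491 normalized counts in WT replicates 1 to 3, at 848, 1514 and 1024 in Het, and at 1052, 558 and 914 in KO. The KO samples all lay below the WT samples, and the Het samples spanned the space between and overlapped both groups. The mean was 1634 ± 159 (SD, n = 3) in WT, 1129 ± 345 in Het and 842 ± 255 in KO, which is 51.5% of WT. The log2 fold change, on the log2(normalized count + 1) scale used throughout, was -1.002 in KO against WT (SE 0.27, 95% confidence interval -1.65 to -0.35), with a limma unadjusted p under 0.05 and adjusted p = 0.610. Of the 6 members, Tssk1 had the lowest p in this comparison.

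Tssk2, which acts with Tssk1 at the chromatoid body of spermatids, was at 3801, 3138 and 2597 normalized counts in WT, at 1925, 2619 and 2198 in Het, and at 2191, 1118 and 2081 in KO. Every KO sample was lower than every WT sample, and 1 Het sample lay just above the lowest WT sample. The means were 3179 ± 603, 2247 ± 350 and 1797 ± 590 (SD, n = 3 each), and the KO mean was 56.5% of WT. KO against WT gave a log2 fold change of -0.87 (SE 0.31, interval -1.61 to -0.12), with a limma unadjusted p under 0.05 and adjusted p = 0.610.

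Tsks, the substrate of this pair, was at 1957, 908 and 954 normalized counts in WT, at 675, 952 and 986 in Het, and at 645, 541 and 824 in KO. The KO values were all below WT, but WT replicate 1 stood far above the rest, and the other WT samples lay among the Het values. The means were 1273 ± 593, 871 ± 171 and 670 ± 143, so KO was at 52.6% of WT. The log2 fold change in KO was -0.85 (SE 0.35, interval -1.70 to -0.01), with a limma unadjusted p under 0.05 and adjusted p = 0.610. Without WT replicate 1 it was -0.50.

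Tssk3, a kinase of spermatids, was at 2101, 1732 and 1477 normalized counts in WT, at 1045, 1406 and 1504 in Het, and at 1195, 765 and 1325 in KO. KO and WT did not overlap, and KO and Het did. The means were 1770 ± 314, 1318 ± 242 and 1095 ± 293, with KO at 61.9% of WT. The difference between KO and WT was -0.72 on the log2 scale (SE 0.26, interval -1.36 to -0.07), with a limma unadjusted p under 0.05 and adjusted p = 0.610.

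Tssk6, which takes part in the exchange of histones during nuclear condensation, was at 4525, 3334 and 5138 normalized counts in WT, at 2393, 2660 and 2978 in Het, and at 2813, 1669 and 6001 in KO. The KO samples held both the lowest and the highest of the 9 values, whereas the 3 Het samples were all below the WT samples. The means were 4332 ± 917 in WT, 2677 ± 293 in Het and 3494 ± 2245 in KO. The KO difference was -0.49 on the log2 scale (SE 0.47, interval -1.63 to 0.65), with limma adjusted p = 0.692. It was -0.98 without KO replicate 3 and -0.05 without KO replicate 2.

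Tssk4, a kinase that phosphorylates Odf2 of the outer dense fibres, had few reads. It was at 8.67, 36.7 and 33.8 normalized counts in WT, at 22.7, 38.2 and 9.52 in Het, and at 16.3, 6.77 and 12.5 in KO, which rest on 80, 74 and 40 reads per group. The low WT sample, replicate 1, lay within the KO range. Means were 26.4 ± 15.4, 23.5 ± 14.3 and 11.9 ± 4.81, and the KO difference of -0.93 on the log2 scale had an interval of -2.50 to 0.64 (limma adjusted p = 0.644). Without WT replicate 1 it was -1.57.

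Tssk5 had 0 reads in each of the 9 libraries. A count of 0 allows up to 3 reads per library, or up to 3.71 normalized counts, and this limit covers counting error only.

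**Figure D1:**
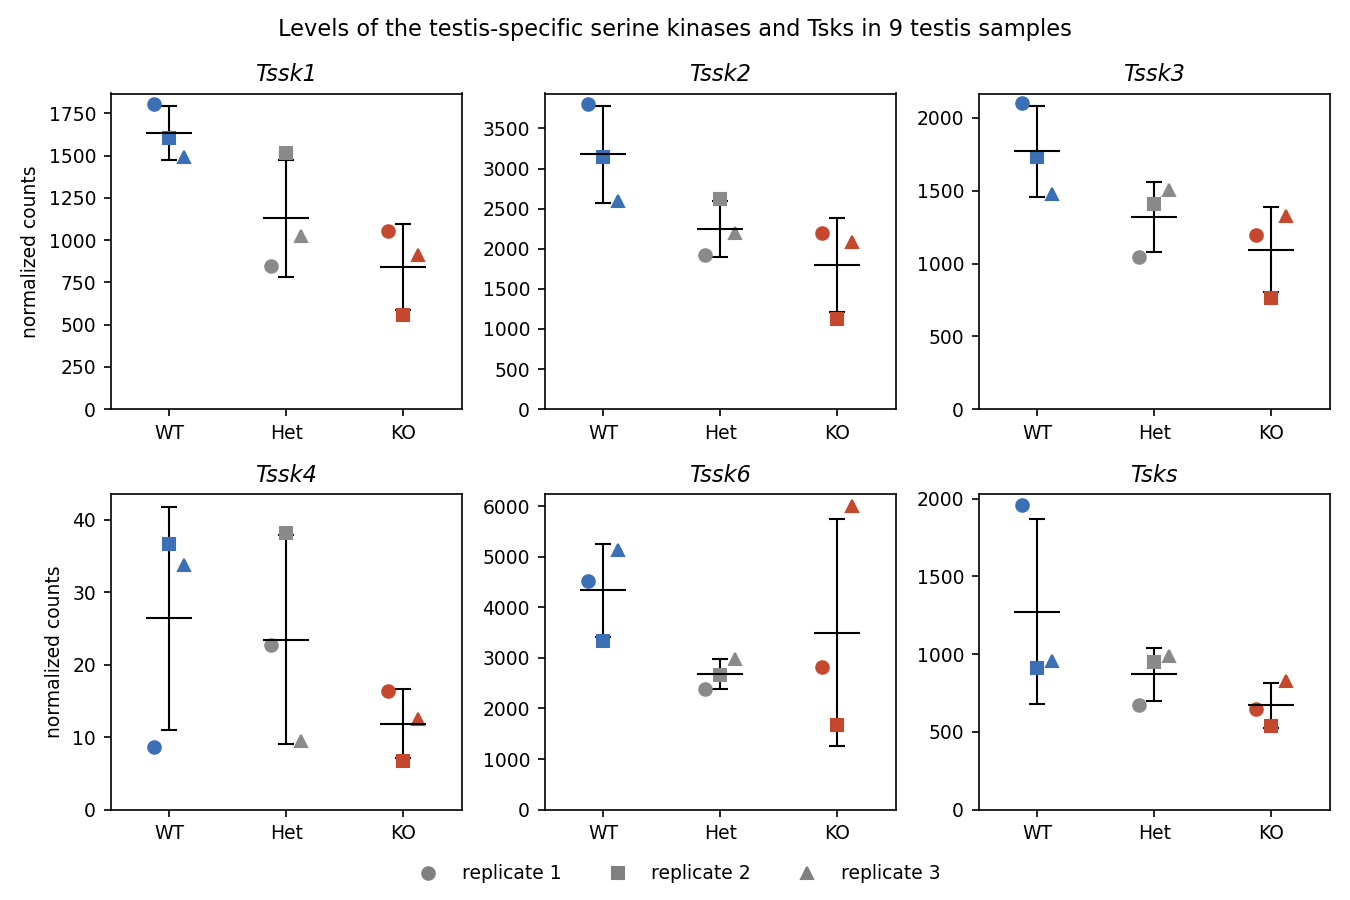
Normalized counts of the 6 expressed members (vertical axes, each from 0) in the WT, Het and KO testis samples. Symbols are samples by replicate number, and the bars give the mean and SD of 3 samples. The KO samples lie below all WT samples for Tssk1, Tssk2, Tssk3 and Tsks, and KO replicate 2 is the lowest sample in every panel.

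The second question was whether carriers of a single intact allele differed from WT. All 6 members had a lower mean log2 level in Het, with a median log2 fold change of -0.48 against 0.01 over 14216 genes, of which 49.5% were lower. No gene was called (0%) by limma or edgeR and 31 by DESeq2, and 475 genes had a limma p under 0.05. Among the members only Tssk6 had such a p, and it was also the only one whose Het samples all lay below WT. Over all genes, 1.89% were lower with such a p and 6.49% did not overlap in that direction.

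For Tssk6 the Het difference was -0.68 (SE 0.20, interval -1.17 to -0.18), with a limma unadjusted p under 0.05 and adjusted p = 0.779. Tssk1 differed by -0.57 (interval -1.17 to 0.03), Tssk2 by -0.49 (-0.99 to 0.00313) and Tssk3 by -0.43 (-0.96 to 0.11), each with limma adjusted p = 0.779. These 3 intervals end just above 0, and in each gene 1 Het sample lay above the lowest WT sample. For Tsks the difference was -0.47 (-1.32 to 0.38, limma adjusted p = 0.779), or -0.12 without WT replicate 1, and for Tssk4 it was -0.13 (-1.90 to 1.65, adjusted p = 0.965).

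The third comparison, KO against Het, found less separation. The median of the members was -0.38, against -0.003 over 14343 genes, and 5 of 6 were lower, as were 50.3% of the genes. No member was called by limma, edgeR or DESeq2 (0.0558% of genes were called by limma), 0 had an unadjusted p under 0.05 in any of these tests (1.82% of genes were lower with such a limma p), and 0 had all KO samples below Het (4.90% of genes). Log2 fold changes were -0.43 for Tssk1, -0.37 for Tssk2, -0.29 for Tssk3, -0.81 for Tssk4, 0.19 for Tssk6 and -0.38 for Tsks. The limma adjusted p was 0.983 for Tssk6 and 0.973 for each of the others. Without KO replicate 2 the median of the members was -0.11, with Tssk1 at -0.16, Tssk2 at -0.06 and Tssk3 at -0.05. All 6 intervals included 0, so neither a difference nor its absence between Het and KO was shown.

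**Figure D2:**
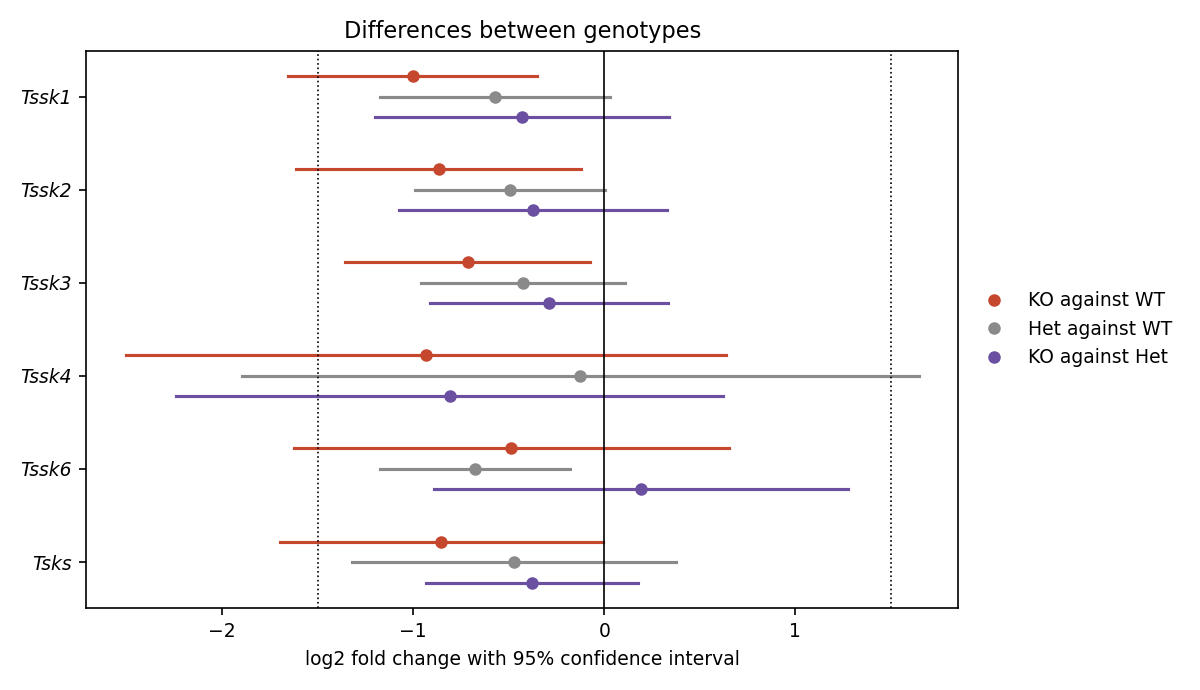
Log2 fold change (horizontal axis) of each member with its 95% confidence interval in the 3 comparisons. The solid line marks no difference and the dotted lines mark the cutoff of 1.5. The KO against WT intervals of Tssk1, Tssk2, Tssk3 and Tsks and the Het against WT interval of Tssk6 lie below 0, and all KO against Het intervals cross 0.

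The order of the mean levels was therefore WT, Het and KO for Tssk1, Tssk2, Tssk3, Tssk4 and Tsks, and WT, KO and Het for Tssk6. No neighbours in that order had an unadjusted limma p under 0.05. The WT samples enter both differences from WT, so these are not independent.

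Spread between samples far exceeded the estimated counting error for the abundant members. That estimate takes the recovered counts as a direct tally of reads, which they are not. In Tssk1, Tssk2, Tssk3, Tssk6 and Tsks the coefficient of variation within a genotype ran from 9.72% to 64.3%. On that assumption, counting alone would give 1.56% to 3.67%. For Tssk4 it was 40.5% to 61.1% against 19.4% to 27.4% from counting.

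Single libraries moved the members together. KO replicate 2 was the lowest of the 9 samples for all 6 members, and it was the lowest sample for 15.4% of 14865 genes. WT replicate 1 was the highest for Tssk1, Tssk2, Tssk3 and Tsks, and it was the highest for 25.5% of genes and the lowest for 28.6%. The median deviation of the 6 members from their WT means, in log2 units, was 0.21, -0.02 and -0.19 in WT replicates 1 to 3, -0.78, -0.29 and -0.52 in Het, and -0.58, -1.42 and -0.56 in KO. Over all genes the same median lay between -0.02 and 0.06 in every sample. Het replicate 1 was thus below both KO replicates 1 and 3.

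The median KO difference of the members was -0.58 without KO replicate 2, -0.66 without WT replicate 1 and -0.39 without both. Without both libraries it was -0.66 for Tssk1, -0.42 for Tssk2, -0.35 for Tssk3, -0.35 for Tsks and -0.01 for Tssk6, but -1.24 for Tssk4. Tssk1 had an unadjusted limma p under 0.05 in each of these settings. The number of members with such a p went from 4 to 2, 2 and 3. Among all genes tested, 4.42%, 8.88% and 9.03% had such a p in either direction in these settings. With all samples it was 1148 of 14223 genes. Tssk2 also had such a p without KO replicate 2 and without both, and Tssk4 without WT replicate 1 and without both. Tssk3 and Tsks had none in these 3 settings.

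**Figure D3:**
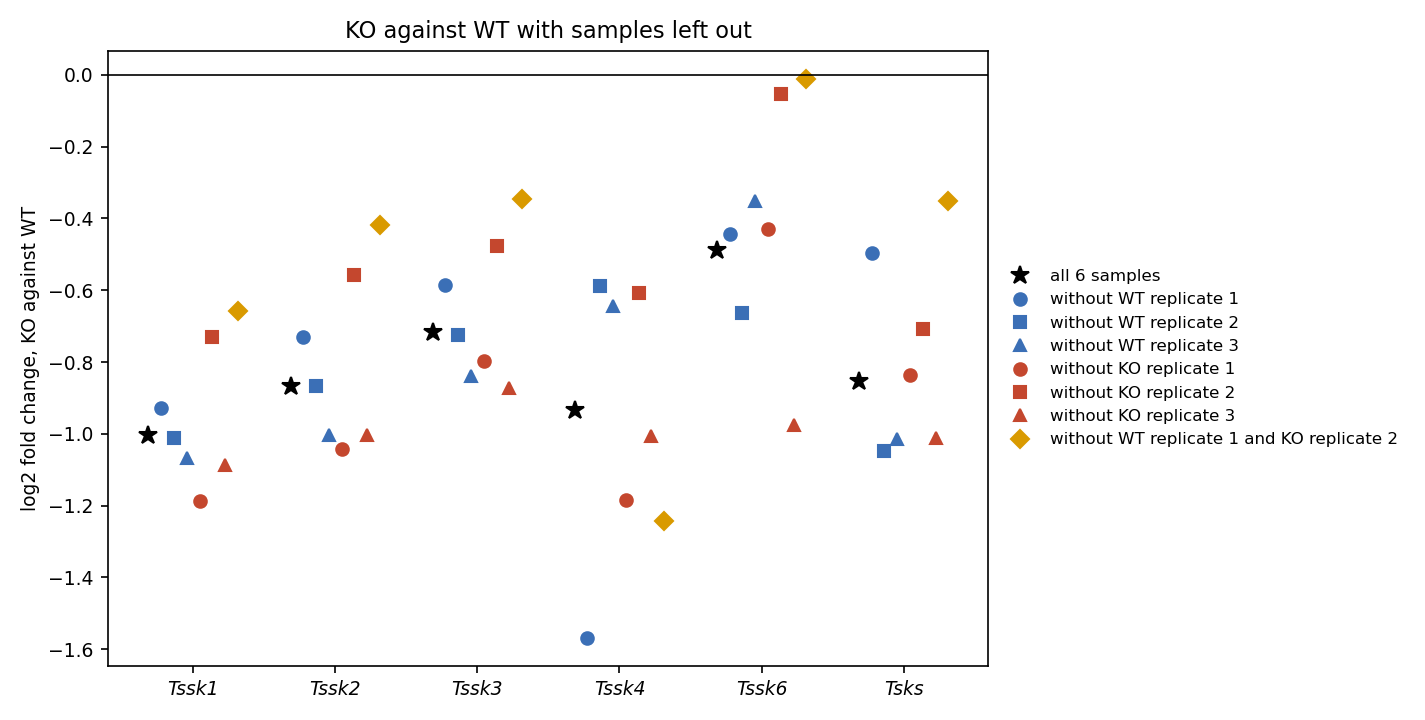
Log2 fold change of KO against WT (vertical axis) for each member with all 6 samples, with each sample left out, and without WT replicate 1 and KO replicate 2 together. All values are below 0, and those without KO replicate 2 alone are nearer to 0 than those with all samples for every member.

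Markers of germ cell stages also stood apart in KO replicate 2. The mean log2 level of 4 elongating spermatid genes (Tnp1, Tnp2, Prm1 and Prm2, which pack sperm DNA) was 15.65 to 15.75 in WT, 15.13 to 15.52 in Het and 14.64 to 15.33 in KO, with KO replicate 2 the lowest, and all 4 genes were lower in KO. Unadjusted limma p-values were under 0.05 for Prm2 and Tnp2, and 0 of 4 were called. The study plotted transition protein and protamine genes by genotype and reported no significant difference for any of its marker groups. For 5 round spermatid genes the range was 9.0 to 9.37 in WT, 8.90 to 9.44 in Het and 8.60 to 9.05 in KO, again lowest in KO replicate 2, and WT replicate 1 was the lowest of the WT samples. For 6 spermatocyte genes it was 7.04 to 7.97, 7.52 to 7.96 and 7.41 to 8.39, highest in KO replicate 2. KO minus WT was -0.63 for the elongating spermatid list, -0.28 for the round spermatid list and 0.42 for the spermatocyte list. Of the round spermatid genes 4 were lower and 1 higher, with a median log2 fold change of -0.07. All 5 spermatocyte genes that were tested were higher. An unadjusted limma p under 0.05 was seen for 1 round spermatid gene, which was lower, and for 2 spermatocyte genes. Over all genes, 48.6% were lower, and with such a p 5.03% were lower and 3.04% higher. The part of these marker list shifts in the members' differences was not tested.

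Other cell types showed smaller shifts or wide ranges. KO minus WT was 0.01 for 5 spermatogonia genes, 0.07 for 5 Leydig cell genes, -0.11 for 4 erythrocyte genes, 0.20 for 4 macrophage genes and 0.38 for 5 Sertoli cell genes, whose WT samples alone ran from 4.43 to 6.93. Of the 4 macrophage genes only 1 passed the filter on low values. Of the 5 Sertoli cell genes 1 was lower and 4 were higher.

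Members were also set against marker genes of the same sample. Subtracting a list mean shifts the KO minus WT difference of every gene by the same amount. The change in size is therefore no property of the members. For the elongating spermatid list KO minus WT was -0.63, and the members' mean differences became smaller in size. The log2 level of a member minus the mean of that list differed between KO and WT by -0.37 for Tssk1, -0.31 for Tssk4, -0.24 for Tssk2, -0.22 for Tsks, -0.09 for Tssk3 and 0.14 for Tssk6. KO samples were then all below WT for Tssk1 alone, and for 0.886% of all genes tested. Against the round spermatid genes the differences ran from -0.72 for Tssk1 to -0.20 for Tssk6, with no overlap for Tssk1 and 2.81% of genes. Against the spermatocyte genes, whose mean was higher in KO, they were larger, from -1.42 for Tssk1 to -0.91 for Tssk6 with a median of -1.28, again with no overlap for Tssk1 and for 5.76% of genes.

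**Figure D4:**
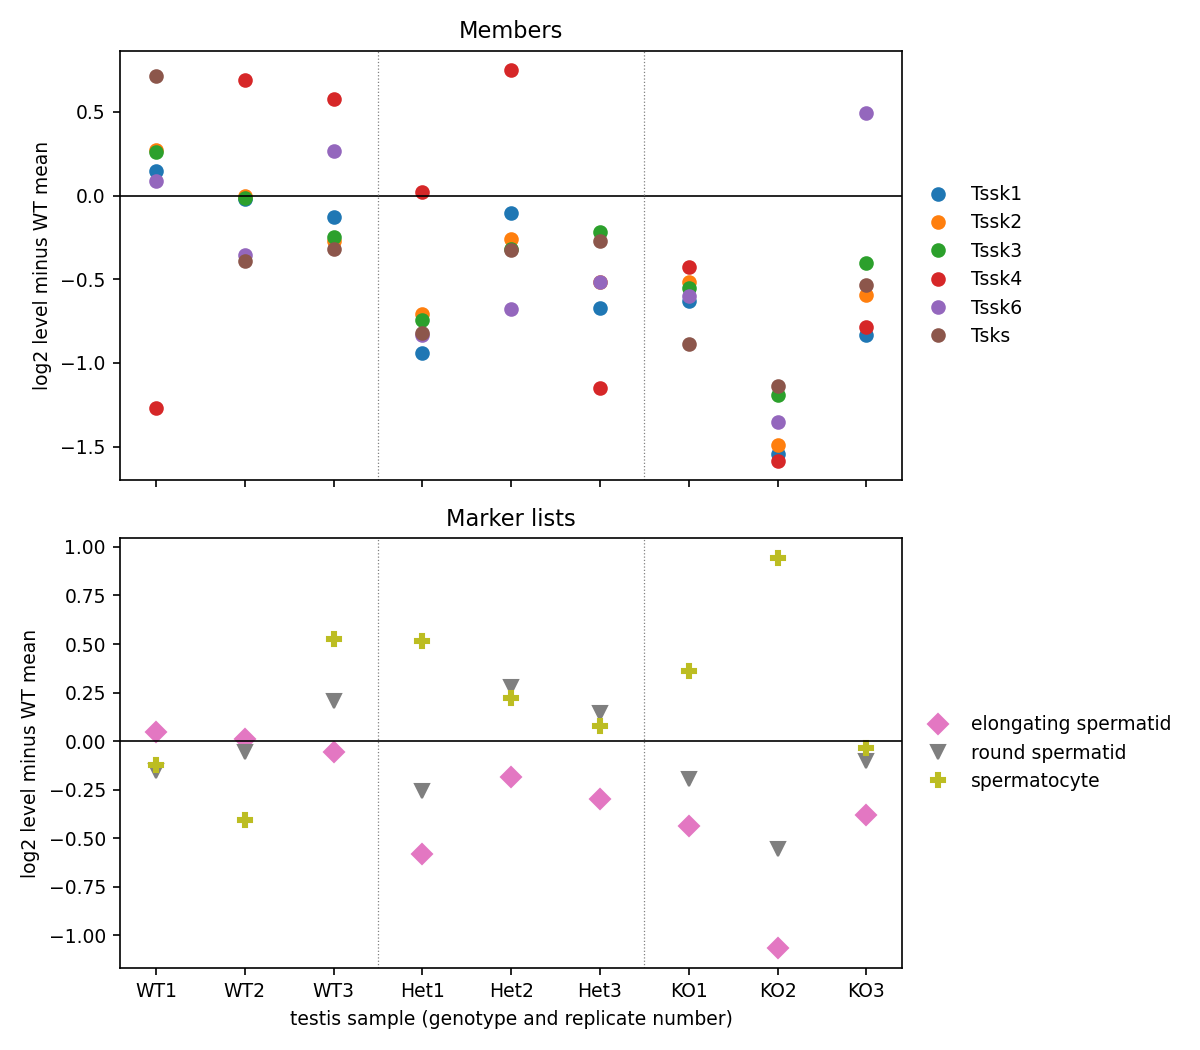
Log2 level minus the WT mean (vertical axes) in each of the 9 testis samples for the 6 members (top) and for the means of 3 germ cell marker lists (bottom). KO replicate 2 has the lowest value of all 6 members and of both spermatid lists, and the highest of the spermatocyte list.

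Genes that act with the kinases did not move as a group. Of 11 such genes, 0 were called by limma, 5 were lower and 6 higher in KO than in WT, and their median log2 fold change was 0.01. Values are given for those with an unadjusted limma p under 0.05, of which 2 were lower and 1 higher. Over all genes, 5.03% were lower and 3.04% higher with such a p, and 10.5% had all KO samples below all WT samples. The share with all KO samples above all WT samples was not counted. Creb1, the transcription factor that Tssk4 can phosphorylate, was at 78.0, 86.8 and 78.2 normalized counts in WT, at 51.0, 88.5 and 97.4 in Het, and at 134, 167 and 152 in KO. All KO samples were above all others, with a log2 fold change of 0.89 against WT (SE 0.20, limma adjusted p = 0.529) and 0.97 against Het (adjusted p = 0.973), both with an unadjusted p under 0.05.

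Odf2, the outer dense fibre protein that Tssk4 phosphorylates, was at 3004, 5464 and 6374 normalized counts in WT, at 1197, 5096 and 2349 in Het, and at 2998, 1451 and 2451 in KO. The highest KO sample was just below the lowest WT sample, and the Het samples spread over almost the whole range. The log2 fold change in KO was -1.10 (SE 0.38, limma unadjusted p under 0.05, adjusted p = 0.610).

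Pdpk1, the kinase that can activate Tssk3, was at 265, 158 and 217 normalized counts in WT, at 89.8, 215 and 132 in Het, and at 137, 86.1 and 88.5 in KO. KO was below WT in all samples, by a log2 fold change of -1.03 (SE 0.30, limma unadjusted p under 0.05, adjusted p = 0.610). The other 8 genes, among them Tsacc, which links Tssk6 to Hsp90, had an unadjusted p of 0.05 or more. In Het against WT, 7 of the 11 were lower and 4 higher, and in KO against Het 6 were lower and 5 higher, with 0 called in both by limma.

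Of 8 other protein kinases of male germ cells, 7 were lower and 1 higher in KO than in WT, with a median log2 fold change of -0.36. Over all genes 48.6% were lower. Those counted as lower include Cdk16 at -0.004 and Prkaca at -0.04, which hardly differed from WT. None of the 8 kinases was called by limma, and 0 had an unadjusted p under 0.05. In Het against WT 6 were lower and 2 higher, 0 were called and 1 had an unadjusted p under 0.05. It was Csnk2a2, named after its values were seen, with mean normalized counts of 240 (WT), 56.4 (Het) and 158 (KO) and a Het log2 fold change of -2.09 (limma adjusted p = 0.779). In KO against Het 6 were lower and 2 higher, with 0 called and 0 with such a p.

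The genes whose profile over the 9 samples was most like the mean of the 6 members were Rhbdd1 (Pearson r 0.984), Golga2 (0.975), Fbxo15 (0.973), Xkr8 (0.973) and Tex35 (0.972), out of 8534 ranked. Mean normalized counts in WT, Het and KO were 281, 229 and 189 for Rhbdd1, 65.8, 49.8 and 42.2 for Golga2, and 77.5, 59.5 and 46.9 for Fbxo15. They were 351, 323 and 301 for Xkr8 and 812, 478 and 343 for Tex35. These values are a description over 9 samples that share their libraries and size factors.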

How the data were processed

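The series holds 9 mouse testis samples. According to its methods and the processing notes, the study trimmed 50-base reads with Trim Galore 0.4.5, aligned them with HISAT2 2.1 to GRCm38 and counted genes with StringTie 1.3.3, leaving out pseudogenes. The authors deposited normalized signal values, gene counts divided by 1 DESeq2-type size factor per sample. Within 0.001, 100% of nonzero values were whole multiples of the smallest nonzero value of their sample, and this unit was taken as 1 read. Genotype and replicate came from the labels. The members and gene lists were chosen with earlier results of these data known.

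Genes needed 10 normalized counts in 3 of the 6 samples compared. Values were tested as log2(value + 1) with limma 3.58.1 (eBayes with trend, two-sided) in R 4.3.3, with Benjamini-Hochberg adjustment over all genes tested. The study's cutoffs served for calls: adjusted p below 0.05 with a log2 fold change beyond 1.5, up or down. Marker values are means of log2(value + 1). The functions were tested on simulated data. All 7 members are named, partner genes only where called or with p under 0.05, and the 5 genes most like the members' mean profile among those with a mean of at least 50. Alternatives were edgeR 4.0.16 and DESeq2 1.42.0 on recovered reads, pseudocounts 0.5 and 5, no filter, TMM factors, scaling to the reads counted per library, all 9 samples in 1 fit, a replicate block and each sample left out. Leaving out WT replicate 1 and KO replicate 2 together, the non-overlap of members set against marker lists, and the motif TGACTTCA were chosen after seeing the data. Gene positions came from GENCODE for GRCm38, read with Python 3.11.15, numpy 2.4.6, pandas 2.3.3 and Biopython 1.88, and figures were drawn with matplotlib 3.10.9. Protein sequences were not used here.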

Additional observations from a re-analysis of the deposited data

How the results depend on the processing

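No member was called in any comparison under any alternative. Of the members' log2 fold changes under the alternatives, all 96 kept their direction for KO against WT, 86 of 90 did for Het against WT and 89 of 90 for KO against Het. The exceptions were Tssk4 in Het against WT, at 0.0203 when scaled to reads per library and between -0.76 and 0.39 with single samples left out, and Tssk6 in KO against Het, between -0.30 (without KO replicate 3) and 0.62. The cause was not tested. Tssk1 had an unadjusted p under 0.05 for KO against WT in 16 of 16 alternatives, Tssk2 in 14, Tssk3 and Tsks in 9 each, Tssk4 in 2 and Tssk6 in 1. The lowest adjusted p of any member in that comparison was 0.217, for Tssk1 with DESeq2.

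The number of members with an unadjusted p under 0.05 in KO against WT went from 4 to 2 when scaled to reads per library. Of all genes, 9.31% had such a p with that scaling, and shares of all genes below are counted in the same way. That scaling moved the median of all genes to 0.22 and that of the members to -0.66. The number was 3 without both WT replicate 1 and KO replicate 2 (Tssk1, Tssk2 and Tssk4), beside 9.03% of all genes. With single samples left out it was 2 to 4, beside 4.42% to 8.88% of all genes. The members were not always the same (without KO replicate 3, Tssk6 was among them and Tsks was not). In Het against WT, 1 became 2 with TMM factors, beside 3.37% of all genes. The number was 0 with all 9 samples in 1 fit, beside 5.67% of all genes. With samples left out it was 1 to 3 (3 without Het replicate 2), beside 1.31% to 5.41% of all genes. Without WT replicate 3 the 1 member was Tssk2 and not Tssk6. In KO against Het, 0 became 0 to 1, beside 2.23% to 5.17% of all genes.

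Genes called in KO against WT were 5, but 100 with DESeq2, 3 with all 9 samples in 1 fit, 0 to 49 with single samples left out (49 when WT replicate 1 was dropped) and 57 with that sample and KO replicate 2 both dropped. In Het against WT the count of 0 became 31 with DESeq2, 2 with a pseudocount of 5, 3 without a filter, 1 with TMM factors, 3 with all 9 samples in 1 fit and 0 to 3 with samples left out. In KO against Het, 8 became 38 with DESeq2, 4 with all 9 samples in 1 fit and 0 to 39 with samples left out (39 without Het replicate 2).

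The labels do not say whether equal replicate numbers pair the samples. Deviations from the genotype means correlated at over 0.1 in 2 of 9 same-numbered pairs (-0.14 to 0.19). Samples with different numbers also reached 0.19 (Het replicate 2 with KO replicate 1), so these correlations cannot decide the question. With a replicate block 0 genes were called in each comparison. An unadjusted p under 0.05 was seen for 2 members in KO against WT, 1 in Het against WT and 0 in KO against Het. Of all genes, 5.58%, 2.27% and 2.81% had such a p in these comparisons. Tssk4 rested on 40 to 80 reads per genotype.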
